A study of Mus musculus with 6 samples.

Results

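The 6 genes described here encode proteins that bind or inhibit crystals in the kidney: Spp1 (osteopontin), Umod (uromodulin), Cd44, Anxa1 (annexin A1), Anxa2 (annexin A2) and Mgp (matrix Gla protein). They were chosen by name for the known functions of their proteins, with earlier results of these data known. They make up 6 of the 55450 genes in the table. All 6 had enough counts to be tested. Only mRNA was measured in this data set, and crystals themselves were not.

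Kidney mRNA was compared between 3 mice on day 0, which served as the control and are labelled as given 20% PEG, and 3 mice on day 21 of daily oral gavage with adenine at 0.16 g/kg and potassium oxonate at 2.4 g/kg. All were wild-type C57BL/6J males, bought at 7 weeks of age and housed for 1 week before the experiment. The study had 6 mice per group, of which 3 per day were sequenced. The libraries are labelled as separate replicates and were taken as separate mice, and p-values measure only the spread between them. Day, treatment and age at collection changed together in this design, and 20% PEG is listed for the day-0 mice only. A vehicle group of the same age on day 21 was not analysed here. Library totals ran from 10963849 to 14333311 counts, so that 3 counts, taken as the detection floor, equal 0.179 to 0.309 CPM (the count scaled to a common effective library size), a limit that covers counting error only.

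Adenine is oxidised in the body to a poorly soluble product that precipitates in renal tubules, and potassium oxonate blocks uricase, the enzyme that lets rodents break down uric acid. Secreted acidic proteins such as osteopontin and uromodulin bind calcium and coat crystals in the urine, which slows their growth and clumping. Matrix Gla protein, once carboxylated with the help of vitamin K, inhibits the calcification of soft tissue. On the cell surface, CD44 is the main receptor for hyaluronan and also binds osteopontin, while the annexins are proteins that attach to membranes in a calcium-dependent manner, and annexins and hyaluronan have both been described as attachment sites for crystals on injured tubular cells.

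The 6 genes lie on 6 different chromosomes of GRCm38. Spp1 (ENSMUSG00000029304.14) spans chr5:104435118-104441050 on the forward strand, and Anxa2 (ENSMUSG00000032231.14) spans chr9:69453620-69491795, also on the forward strand. The other 4 are on the reverse strand. These are Umod (ENSMUSG00000030963.6) at chr7:119462711-119479282, Cd44 (ENSMUSG00000005087.17) at chr2:102811141-102901665, Anxa1 (ENSMUSG00000024659.15) at chr19:20373428-20390944 and Mgp (ENSMUSG00000030218.2) at chr6:136872435-136875823. Their longest annotated transcripts hold between 2 exons (Mgp) and 19 exons (Cd44), so counts per gene pool all isoforms of Cd44.

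Sequence upstream of the start site is shown for 2 members, namely Spp1, the most abundant of the 6 on day 21, and Anxa2, which holds the AP-1 letters. RefSeq start sites on GRCm38.p6 gave a window of 250 bases before and 50 bases after the start for 5 of the 6 members. The windows were searched on both strands for AP-1 (TGANTCA), RUNX (TGTGGT) and the TATA box (TATAAA), and no matches overlapped in these members. Capitals mark the matches, and each sequence runs 5′ to 3′ on the strand of the gene, up to where annotated transcripts begin. The stretches are chr5:104434861-104435110 (forward strand) for Spp1 and chr9:69453433-69453619 (forward strand) for Anxa2.
Spp1: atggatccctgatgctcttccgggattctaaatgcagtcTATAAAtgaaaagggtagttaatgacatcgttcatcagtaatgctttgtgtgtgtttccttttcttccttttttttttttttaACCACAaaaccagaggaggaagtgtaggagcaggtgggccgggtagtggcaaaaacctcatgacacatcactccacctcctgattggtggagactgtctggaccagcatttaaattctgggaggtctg
Anxa2: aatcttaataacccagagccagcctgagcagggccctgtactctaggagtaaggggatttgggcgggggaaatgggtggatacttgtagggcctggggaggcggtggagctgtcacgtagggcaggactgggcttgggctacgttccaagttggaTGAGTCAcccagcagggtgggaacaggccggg
The Spp1 stretch holds the RUNX letters, read on the opposite strand as ACCACA, at position -128 from the RefSeq start and the TATA letters at -211. In Anxa2 the AP-1 letters TGAGTCA begin at position -95 and a TATA box at -17, inside the annotated gene and hence not shown. Anxa1 has a TATA box at -32, and none of these letters occur in the windows of Umod and Cd44. Of all 32851 windows of this length, 7.81% hold the AP-1 letters, 16.8% the RUNX letters and 13.6% the TATA letters. These matches are descriptions of letters and not evidence of binding.

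To find out which of the 6 genes changed between day 0 and day 21, a quasi-likelihood model was fitted to the counts with edgeR. Expression rose for 5 of them by day 21, which were Cd44 (21.2-fold), Spp1 (19.6-fold), Mgp (8.3-fold), Anxa1 (4.08-fold) and Anxa2 (3.53-fold). Umod, the most abundant of the 6 on day 0, was 1.37-fold lower and was not called. A call required a Benjamini-Hochberg adjusted p under 0.05 and a fold over 1.5. Among all 16592 genes tested, 35.1% were called and 19.6% were called higher. All 6 members had an adjusted p under 0.05, as did 45.6% of all genes at any fold. In all 6 members the 3 mice of one day lay apart from the 3 of the other, as they did in 57.1% of all genes tested (30.7% with day 21 above and 26.4% with day 21 below), and the two-sided exact permutation test gave p = 0.1 for each, the smallest that 3 against 3 allows. In bulk tissue, more cells of a type and more RNA per cell cannot be told apart.

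**Figure D1:**
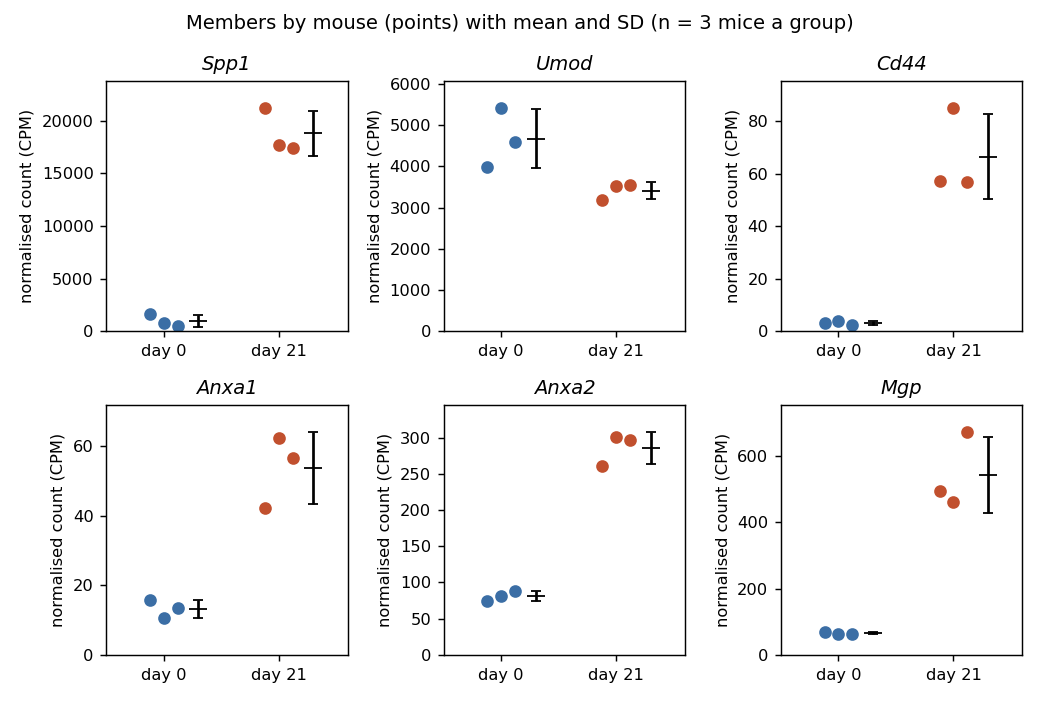
Normalised counts (CPM, linear axes from 0) of the 6 genes in each mouse, with blue points for day 0, orange points for day 21, and the mean with SD beside them (n = 3 mice a group). The 3 day-21 mice sit above the 3 day-0 mice in every panel except that of Umod, where they sit below.

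Among the genes of secreted proteins, Spp1 showed the highest level on day 21. Osteopontin is an acidic phosphoprotein made by tubular cells and macrophages, and it serves both as a crystal inhibitor in urine and as a ligand for integrins and CD44. On day 0 its normalised counts were 1614, 752 and 513 CPM in replicates 1, 2 and 3, and on day 21 they were 21208, 17712 and 17407 CPM. The day-0 mice thus differed among themselves (959 ± 579 CPM, SD, n = 3) far more in proportion than the day-21 mice (18775 ± 2112 CPM, SD, n = 3), with replicate 1 the highest of day 0. The log2 fold change was 4.29 (standard error, SE, 0.39, 95% interval from 3.43 to 5.15, edgeR, adjusted p = 1.6e-05). Without day-0 replicate 1 it was 4.87, and without day-0 replicate 3 it was 3.98. Spp1 ranked 106 by normalised count among the genes tested on day 0 and ranked 1 on day 21, when it took 1.99% to 2.37% of all counts in a library, against 0.0454% to 0.142% on day 0. A small gene on the same strand, Gm42793, shares 309 exon bases with Spp1, and it had between 0 and 43 counts per mouse, against at least 4979 for Spp1.

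Mgp encodes a small secreted protein of vascular smooth muscle, cartilage and fibroblasts whose glutamate residues are carboxylated. Its normalised counts were 69.1, 62.9 and 64.2 CPM on day 0 and 494, 460 and 674 CPM on day 21. The day-0 mice were close together (65.4 ± 3.27 CPM, SD, n = 3), and the day-21 mice were more spread (543 ± 115 CPM, SD, n = 3), with replicate 3 the highest. The log2 fold change was 3.05 (SE 0.16, 95% interval from 2.70 to 3.41, edgeR, adjusted p = 1.1e-06). A log2 fold change at least this high was found in 2.4% of all genes tested.

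Cd44 encodes the hyaluronan receptor, a transmembrane glycoprotein of leukocytes, fibroblasts and injured or regenerating epithelium. Its counts were low on day 0, at 32, 45 and 23 counts, and reached 810, 1426 and 929 counts on day 21. Normalised, these were 3.21, 3.71 and 2.37 CPM on day 0 and 57.3, 85.1 and 56.9 CPM on day 21, with replicate 2 the highest of its group. The log2 fold change of 4.41 (SE 0.23, 95% interval from 3.90 to 4.91, edgeR, adjusted p = 1.1e-06) was above that of Spp1 by less than the SE of either. The order of these 2 genes turned without day-0 replicate 1, when Spp1 had 4.87 and Cd44 4.40, and without day-21 replicate 2, when they had 4.33 and 4.19. It also turned with limma-voom (4.45 and 4.38) and with the replicate block (4.45 and 4.42).

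The annexin members had smaller fold changes. Anxa1, which also acts as an anti-inflammatory mediator through formyl peptide receptors, had 15.6, 10.6 and 13.4 CPM on day 0 and 42.2, 62.3 and 56.7 CPM on day 21. The lowest day-21 mouse thus stood well above the highest day-0 mouse, and the log2 fold change was 2.03 (SE 0.19, 95% interval from 1.61 to 2.44, edgeR, adjusted p = 1.8e-05). Anxa2, a membrane-bound protein that also takes part in plasmin formation at the cell surface, had 74.7, 80.6 and 87.9 CPM on day 0 and 260, 301 and 296 CPM on day 21. Its fold change had the smallest SE of the 6, and its counts had a coefficient of variation of 8.16% on day 0 and 7.83% on day 21 (n = 3 mice each). On the log2 scale the rise was 1.82 (SE 0.12, 95% interval from 1.56 to 2.08, edgeR, adjusted p = 2.4e-06).

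**Figure D2:**
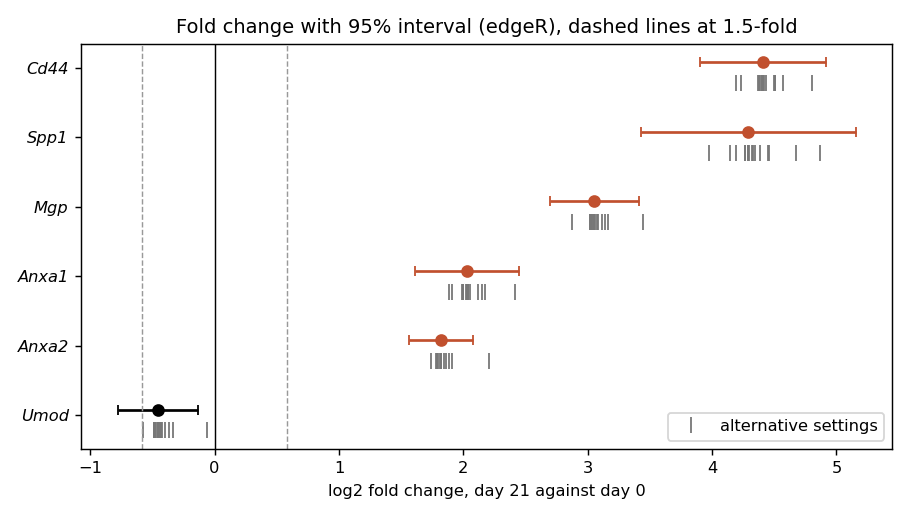
Log2 fold change (day 21 against day 0) of each gene with its 95% interval from edgeR, and grey ticks for the values under the alternative settings. The intervals of Cd44 and Spp1 overlap around 4.4, those of Anxa1 and Anxa2 around 2, and that of Umod (black) runs from -0.77 to -0.13 across the dashed line at 1.5-fold.

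Umod encodes uromodulin, the most abundant protein of normal urine, which is made almost only by the thick ascending limb and the early distal tubule. Its normalised counts were 3989, 5421 and 4601 CPM on day 0 and 3173, 3523 and 3544 CPM on day 21. All day-21 mice were below all day-0 mice, but the highest day-21 mouse and the lowest day-0 mouse were close. The log2 fold change of -0.45 (SE 0.14, 95% interval from -0.77 to -0.13) had an adjusted p of 0.027 with edgeR and stayed under the 1.5-fold threshold. This value rested on the scaling of the libraries. As a share of all counts, Umod held 0.352%, 0.461% and 0.407% on day 0 and 0.354%, 0.412% and 0.404% on day 21, and these ranges overlap. With scaling by library size alone, the log2 fold change was -0.059 (adjusted p = 0.72 with edgeR), where the median of all genes was 0.42. Relative to the median of all genes, Umod stood at -0.48 under that scaling and at -0.48 under TMM. Over the 17 alternatives run on it, its adjusted p was under 0.05 in 11 and it was called in 0. These 11 include the stricter limits, which reuse the main fit and so repeat its adjusted p. They also include the addition of Gm44588 counts, described below and chosen after seeing the data.

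Part of the Umod count cannot be told apart from a gene on the opposite strand. Gm44588, at chr7:119462821-119472478, has 545 exon bases, of which 539 lie within exons of Umod, and the strand setting of the counting is not given in the sources used here. It was listed at 17538, 29960 and 21168 counts on day 0 and at 21143, 29924 and 27152 counts on day 21. This was 44.1% to 47.4% of the Umod count on day 0 and 46.9% to 50.7% on day 21. Per exon length its level was above that of Umod itself, with a day-0 mean of 3920 RPKM (CPM divided by exon length in kilobases) against 1690 RPKM for Umod. With its counts added to those of Umod, an alternative chosen after seeing the data, the log2 fold change was -0.43 (adjusted p = 0.04 with edgeR), so the estimate moved little, but the absolute level of Umod given below holds only for the count as listed.

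Compared per exon length, the 6 genes changed order between the days. On day 0 the mean levels were 1690 RPKM for Umod, 582 for Spp1, 55.1 for Mgp, 21.7 for Anxa2, 4.54 for Anxa1 and 0.457 for Cd44. On day 21 they were 11393 RPKM for Spp1, 1235 for Umod, 457 for Mgp, 76.6 for Anxa2, 18.5 for Anxa1 and 9.80 for Cd44. No neighbours in either order overlapped between mice, the closest being Anxa1 (14.5 to 21.4 RPKM) and Cd44 (8.40 to 12.6 RPKM) on day 21. Within a mouse the ratio of Spp1 to Umod per length, which does not depend on library scaling, went from a geometric mean of 0.309 on day 0 to 9.20 on day 21. The ratio of Anxa1 to Anxa2 was 0.207 on day 0 and 0.238 on day 21, and that of Spp1 to Cd44 was 1153 and 1179.

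**Figure D3:**
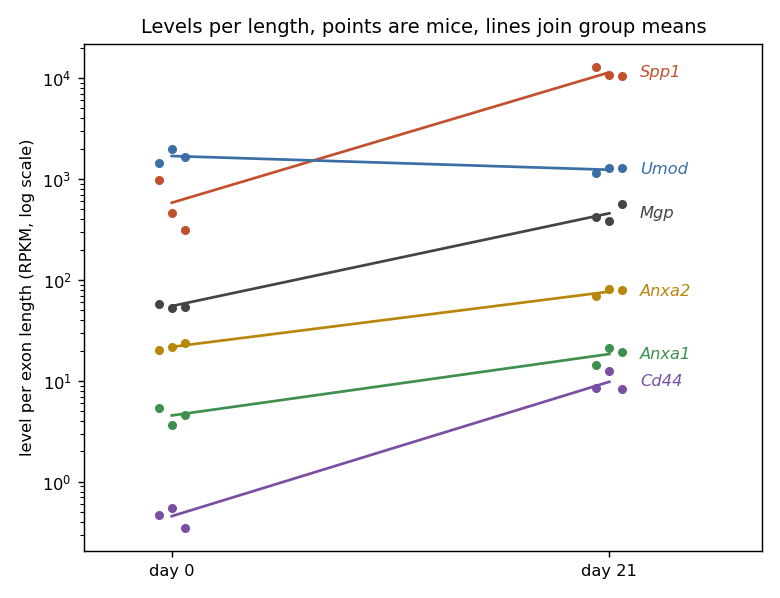
Level per exon length (RPKM, log axis) of the 6 genes on day 0 and day 21, where points are mice and lines join the group means. Spp1 and Umod exchange places, from 582 and 1690 RPKM on day 0 to 11393 and 1235 RPKM on day 21, while the order of the other 4 is kept.

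To see how Umod compared with other genes of the same nephron segment, 14 markers of the thick ascending limb were examined, and all 14 were tested. Of these, 8 fell, 2 rose (Cldn16 and Cldn19, claudins of the paracellular magnesium and calcium path) and 4 were not called, with a median log2 fold change of -0.78, against 0.03 for all genes tested and -0.45 for Umod. Among all genes tested, 15.5% were called lower and 19.6% higher, the shares to set beside the counts of this and the later lists. Egf, the growth factor precursor made in this segment, fell 18.8-fold, from 1886 ± 333 to 100.3 ± 12.2 CPM (SD, n = 3 each), and Slc12a1, the sodium-potassium-chloride cotransporter, fell 3.14-fold, from 1248 ± 59.0 to 398 ± 44.0 CPM (SD, n = 3 each). The summed level of the 14 markers was 4675 to 5263 CPM on day 0 and 1550 to 1660 CPM on day 21.

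Ratios within a mouse are free of library scaling. The ratio of Umod to Slc12a1 was 3.04, 4.54 and 3.71 on day 0 and 9.13, 8.20 and 8.53 on day 21, and the ratio of Umod to Egf was 2.39, 2.39 and 2.67 on day 0 and 32.5, 31.0 and 39.5 on day 21. Neither set of ratios overlapped between the days (two-sided exact permutation test, p = 0.1 for each, the smallest possible). Over the 14 markers, the ratio of Umod to the marker was higher in all day-21 mice for 7, lower in all day-21 mice for 3 (Cldn16, Cldn19 and Enox1) and overlapping for 4. Normalised counts of single genes lay apart between the days in 57.1% of all genes tested. The like share for ratios of Umod to any gene was not computed, so whether these counts are particular to the segment was not tested. The decrease of Egf and of Slc12a1 was thus greater than that of Umod, while Cldn16, Cldn19 and Enox1 went the other way relative to Umod.

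**Figure D4:**
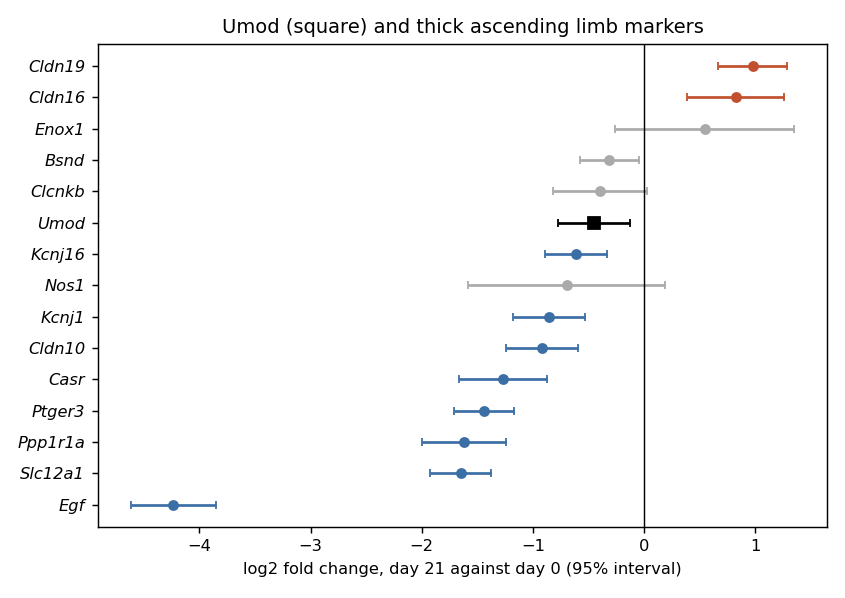
Log2 fold change (day 21 against day 0) with 95% interval from edgeR for Umod (black square) and 14 thick ascending limb markers, in blue where called lower, orange where called higher and grey where not called. Umod lies at -0.45, between the markers called lower, down to -4.23 for Egf, and those called higher, up to 0.97 for Cldn19.

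Among genes that process uromodulin or regulate its gene, 8 of the 10 listed were tested, 5 fell and 1 rose, with a median log2 fold change of -0.82. Hpn, which encodes hepsin, the protease that releases uromodulin from the membrane, fell (log2 fold change -0.86), and Esrrb, an orphan nuclear receptor gene, fell most (-2.12).

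Of the 9 genes listed as osteopontin receptors, integrin chains that bind osteopontin, all were tested, 5 rose and 0 fell, with a median log2 fold change of 0.65. Itga4, a chain of leukocyte integrins, was highest (2.84-fold, from 4.49 ± 0.27 to 12.7 ± 2.31 CPM, SD, n = 3 each), and Itgb1, Itgb5, Itga5 and Itga9 were the others called. The chains of the classical osteopontin receptor, Itgav (0.48, SE 0.18) and Itgb3 (0.40, SE 0.20), were not called, although both were called with library size alone and Itgav also without day-0 replicate 1. Itga8 had the lowest value (-0.040), and its sign turned under 4 alternatives.

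In the list of osteopontin relatives and modifying enzymes, 7 of 11 genes were tested, 3 rose and 0 fell, with a median of 0.34. Ibsp and Mepe, bone members of the same family, had 0 counts in all 6 mice. The metalloproteinases Mmp3 and Mmp7, which can cleave osteopontin, rose together with Runx2, a transcription factor gene of bone cells. Mmp7 had 0 counts in each day-0 mouse and 179, 469 and 249 counts on day 21, so it was at least 65.2-fold higher against a floor of 3 counts per library. F2, the prothrombin gene, was lowest (-1.27, SE 0.66) and was not called with all mice, but it was called lower without day-21 replicate 2 (-2.29).

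Of 15 genes of hyaluronan turnover and CD44 partners, 13 were tested, 3 rose and 1 fell, with a median log2 fold change of 0.02. Has2, a hyaluronan synthase gene, had 0 counts in each day-0 mouse and 11, 14 and 12 counts on day 21, at least 2.74-fold higher against the same floor. Its day-21 mean was 0.783 CPM. Has3, the more abundant synthase gene, had 38.7 ± 6.89 CPM on day 0 and 41.3 ± 8.05 CPM on day 21 (SD, n = 3 each) and was not called. Cemip, whose product takes part in hyaluronan breakdown, rose 5.14-fold, and Msn, the gene of the cytoskeletal linker moesin, rose 2.41-fold from 214 ± 34.1 to 517 ± 34.0 CPM (SD, n = 3 each). Ezr (log2 fold change -0.057) and Rdx (-0.41), listed beside Msn, were not called. Esrp2, an epithelial splicing factor that acts on Cd44 transcripts, fell 1.81-fold, while Esrp1, also in the list, was not called (log2 fold change 0.13). Lyve1, another hyaluronan receptor gene, had the lowest value (-1.08, SE 0.49, adjusted p = 0.095 with edgeR) and was not called.

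Anxa1 and Anxa2 were 2 of 12 annexin genes, of which 11 were tested, 7 rose (both members included) and 0 fell, with a median of 1.10. Anxa3 had the highest fold change of the list and rose 7.59-fold, from 11.7 ± 1.65 to 89.1 ± 6.98 CPM (SD, n = 3 each). Anxa5, which binds phosphatidylserine on dying cells, rose 2.20-fold, from 133 ± 9.41 to 293 ± 23.7 CPM (SD, n = 3 each), and Anxa6, Anxa9 and Anxa4 were also called higher. Anxa11 had the lowest value (-0.51, SE 0.10) and stayed under 1.5-fold. Among partners and receptors of the annexins, 5 of 10 were tested, 4 rose and 0 fell, with a median of 1.62. S100a10, the binding partner of annexin A2, rose 1.80-fold (edgeR, adjusted p = 0.015), a call that was lost without day-0 replicate 2 (log2 fold change 0.72, adjusted p = 0.067 with edgeR). Fpr2, a receptor gene for annexin A1, had 0, 3 and 0 counts on day 0 and 12, 15 and 16 counts on day 21 and was called higher, whereas Ahnak, a scaffold gene, had a log2 fold change of 0.09 and was not called.

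For matrix Gla protein, 9 of 12 genes of its carboxylation, targets and pyrophosphate control were tested, 1 rose and 0 fell, with a median of -0.18. Ank, a gene of pyrophosphate export, was the one called higher (log2 fold change 0.76, SE 0.19), and Enpp1, a gene of pyrophosphate formation, was lowest (-0.50, SE 0.15). Enpp1 was called lower without day-0 replicate 3 (-0.59) and without day-21 replicate 3 (-0.63). Ggcx, the vitamin K-dependent carboxylase gene, had 17.5 ± 1.78 CPM on day 0 and 15.4 ± 0.439 CPM on day 21 (SD, n = 3 each) and was not called. Vkorc1, whose product recycles vitamin K, had 2 to 5 counts per mouse, too few to be tested.

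Other urinary inhibitors moved in both directions, with 9 of 13 tested, 4 higher, 4 lower and a median of -1.27. Fn1, the fibronectin gene, rose 8.13-fold, from 37.5 ± 15.2 to 304 ± 22.7 CPM (SD, n = 3 each), and Lgals3, Itih1 and Itih3 rose as well, while Itih2, a heavy chain gene of the inter-alpha inhibitor family, fell 16.2-fold and Alb, Tff1 and Itih5 fell. The list of other crystal-binding surface proteins also held Has2 and Has3, which encode synthases of hyaluronan and not crystal-binding proteins. All 9 genes of this list were tested, 4 rose (Has2, at low counts, Vim, Anxa5 and Ncl) and 2 fell (Hspd1, with a log2 fold change of -1.25, and Slc3a2), with a median of 0.09. Over the lists as a whole, which share a few genes, 95 related genes other than the 6 were in the table, 74 were tested, 28 were higher and 12 lower, which is 40 of 74, and the median was 0.22. Among all genes tested, 35.1% were called, 19.6% higher and 15.5% lower, and the median was 0.03.

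**Figure D5:**
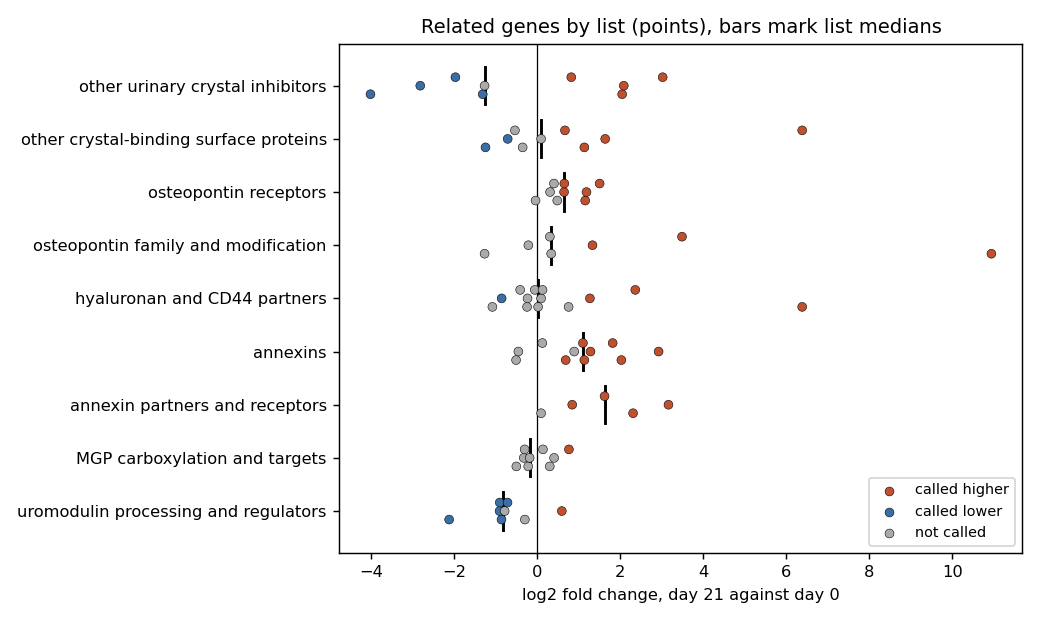
Log2 fold change (day 21 against day 0) of the related genes tested, by list, with orange points called higher, blue points called lower, grey points not called and a black bar at each median. Annexins (median 1.10) and their partners (1.62) lie mostly to the right and uromodulin genes (-0.82) mostly to the left, and the fitted values of Has2 and Mmp7, which had 0 counts on day 0, are not bounds.

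Markers of several cell types moved with the members. The summed level of 11 markers of injured tubules, all called higher, was 609 to 893 CPM on day 0 and 7141 to 7663 CPM on day 21, with log2 fold changes from 1.08 (Krt7) to 8.07 (Havcr1). Of 13 macrophage markers, 11 were called higher and 1 lower (Mertk, -1.06), up to 4.75 for Ms4a7, and their sum went from 238-287 to 1072-1396 CPM. Of 12 markers of fibroblasts and smooth muscle, 10 were called higher, up to 4.35 for Col1a1, and 1 lower (Myh11, -0.79), and the sum went from 379-505 to 1325-2423 CPM. Of 12 T cell markers, 10 were called higher and 0 lower, with values over the list of up to 2.64 for Lck (median 1.85), with sums of 10.7 to 16.7 CPM on day 0 and 44.5 to 54.3 CPM on day 21. No marker of these 4 lists had 0 counts in all mice of a day. Their part in the changes of the 6 genes was not tested.

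All 12 proximal tubule markers fell, from -1.28 for Hnf4a to -3.01 for Kap, with sums of 26499 to 38292 CPM on day 0 and 4757 to 6803 CPM on day 21. Among 12 endothelial markers 3 fell and 0 rose, with values from -1.33 for Kdr to 0.11 for Eng, which was not called, and the sum went from 885-1014 to 506-802 CPM. Among 12 neutrophil markers only 5 had enough counts, of which 1 rose (Csf3r, 1.19) and 2 fell (S100a9, -1.99, and S100a8). S100a8, S100a9, Csf3r and Cxcr2 had 11 to 161 counts in each mouse, while Elane and Mpo had 0 counts in all 6 mice. The rest of the list was mixed, with 3 to 30 counts per mouse for Ltf, 4 to 20 for Retnlg, 1 to 35 for Mmp8 and 0 to 4 for Ly6g. Ngp had 17, 26 and 0 counts on day 0, Camp had 2, 5 and 0, and both had 0 on day 21. The maturity of the neutrophils was not tested. The neutrophil sum was 16.7 to 33.0 CPM on day 0 and 12.4 to 13.9 CPM on day 21. Among 10 urothelial markers, summing to 7.52-33.7 CPM on day 0 and 29.1-45.3 CPM on day 21, 9 were tested, 1 fell and 2 rose. Highest was Sprr2f, which had 1, 0 and 0 counts on day 0 and 330, 273 and 420 counts on day 21. This gene alone held 23.3, 16.3 and 25.7 CPM of the day-21 sums of 41.5, 29.1 and 45.3 CPM. The higher sums on day 21 thus rest largely on Sprr2f and do not stand for the list. Upk1a was called lower (-1.51), but not without day-0 replicate 2 (-1.46), day-0 replicate 3 (-1.11), day-21 replicate 1 (-1.52) or day-21 replicate 2 (-1.29). Mitochondrially encoded genes took 9.39% to 9.86% of counts on day 0 and 3.82% to 4.42% on day 21, and leaving them out changed no call among the 6 members.

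Finally, the genes with the profile most like that of each member over the 6 mice were listed, from 13141 other genes with a mean of at least 50 counts. Likeness was the root mean square distance between log2 normalised counts, each centred on its own mean, so a small distance largely reflects a like change between the days, and no test was made. Nearest to Spp1 were Smpdl3b (0.16), Vcam1 (0.25) and Sprr2g (0.30), and nearest to Cd44 were Slc34a2 (0.19), Clec12a (0.23) and Vcam1 (0.28), so that Vcam1, an adhesion receptor gene, was near both. For Mgp they were Gm20444 (0.11), Mrc1 (0.14), the macrophage mannose receptor gene, and Dpysl3 (0.15). For Anxa1 they were Pinx1 (0.11), Rrad (0.11) and Cldn4 (0.12), and for Anxa2 Phlda3 (0.062), Crlf2 (0.065) and Sla (0.067). Umod was nearest to Wdr55 (0.031), Commd6 (0.034) and Smpd1 (0.045), none of which is a marker in the thick ascending limb list.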

How the data were processed

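Per the labels, total RNA of kidney tissue was made into Illumina libraries and sequenced as paired-end reads. The submitters' processing notes list TopHat and mm10. The counting program, its strand setting and read filters are not given in the sources used here. The authors deposited raw counts per gene and mouse, without normalization, and all 55450 identifiers matched GENCODE release M21 (GRCm38), which gave positions and exon lengths. Promoter windows came from RefSeq (GRCm38.p6).

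Genes were filtered with filterByExpr (minimum count 10, minimum total 15), scaled by TMM and compared between day 21 and day 0 with edgeR's quasi-likelihood test and no replicate block, with Benjamini-Hochberg adjustment over all 16592 genes tested. CPM used TMM-scaled library sizes, and RPKM divided CPM by exon length. The limits for a call were 0.05 for the adjusted p and 1.5 for the fold. Beside the model, a two-sided exact permutation test was run on log2 CPM. No pair of mice in a group was a duplicate, since chi-square per gene was at least 6.78. The edgeR, DESeq2 and limma-voom fits were tested on simulated data. Alternatives were other scalings, filters and tools, a replicate block, each mouse left out, genes left out of the library and stricter thresholds.

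The members and lists were chosen with earlier results of these data known. The rule for named genes took all members, the highest and lowest gene of each list, 11 genes by function (among them S100a10, Slc12a1, Itgav and Ggcx) and the 3 nearest profiles per member. Some genes that this rule covers are not reported here. Other genes were named after their values were seen. Tools were R 4.3.3, edgeR 4.0.16, limma 3.58.1, DESeq2 1.42.0 and Python 3.11.15.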

Additional observations from a re-analysis of the deposited data

How the results depend on the processing

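The 5 members called higher kept their direction and their call under every alternative that could be run on them, 17 for each and 16 for Spp1, which is itself among the 20 highest genes and so has no value once these are left out, as has Umod. The log2 fold changes ranged from 3.98 to 4.87 for Spp1, 4.19 to 4.8 for Cd44, 2.87 to 3.44 for Mgp, 1.89 to 2.42 for Anxa1 and 1.74 to 2.21 for Anxa2. Umod ranged from -0.58 to -0.059 and was never called. Its adjusted p passed 0.05 with upper quartile scaling (0.063), library size alone (0.72), without day-0 replicate 2 (0.079) and without day-21 replicate 1 (0.093), 2 (0.051) or 3 (0.074).

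With limits of 0.01 for the adjusted p and 2 for the fold, 26 related genes were called instead of 40, since fewer genes pass stricter limits. Signs reversed for Itga8 with upper quartile scaling (0.043), library size alone (0.34), without day-0 replicate 3 (0.029) and without day-21 replicate 2 (range over mice left out from -0.22 to 0.20), for Ggcx with library size alone (0.21) and for Eng without day-0 replicate 1 (range from -0.026 to 0.22), and none of these was called before or after. The calls of Myh11 and Upk1a were lost with library size alone (-0.39 and -1.12). Under that scaling 81.7% of called genes were higher, against 55.8% with TMM.

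Deviations of same-numbered mice from their group means correlated at -0.03, 0.18 and 0.11, and those of differently numbered mice at -0.20 to 0.13. With 3 mice a group, whose deviations sum to 0, these values cannot decide whether replicate numbers pair the mice. With the replicate block Umod had a log2 fold change of -0.44 (adjusted p = 0.046 with edgeR) and Spp1 4.45, and no member's call changed. Ambp (2 to 9 counts per mouse) and Vkorc1 (2 to 5) had too few counts to be tested at this depth.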
